A study of Mus musculus with 71 samples.

Results

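Mitochondrial ribosomal protein genes were described across mouse oocytes made in culture, oocyte-like cells induced directly from stem cells, and oocytes taken from animals. The members were all rows of the deposited expression table, as held here, whose symbol begins with Mrpl or Mrps followed by a digit. This gave 59 genes of 15140. The symbol matches the product for 58 of them: 39 encode proteins of the large subunit and 19 of the small subunit. Mrps36 keeps its old name but encodes a component of the 2-oxoglutarate dehydrogenase complex of the citric acid cycle, so it is given apart. Mrps12 and Mrpl3 were not among the genes analysed here, and Mrpl58 stands in the table under its older symbol Ict1. The table as held here ended within a row, so genes may be missing from it. That 1 row and 22 rows named by dates were left out.

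RNA levels came from polyA-selected, directional libraries and were deposited as TPM (transcript counts per gene length, scaled to a fixed total), so they measure RNA carrying a poly(A) tail. The in vitro oocytes were derived from embryonic stem cells (C57BL/6 X 129) that carry Blimp1-Venus and Stella-CFP, fluorescent reporters of germ cells. Primordial germ cell-like cells were induced first and then aggregated with gonadal somatic cells of female embryos, and Stella-CFP positive oocytes were sorted on day 11 or 13 of in vitro differentiation. Wild-type oocytes of both days were sequenced with 4 knockouts taken on day 11 (Figla, Lhx8, Stat3 and Sub1) and 15 on day 13 (Ccnk, Dynll1, Ell3, Foxr1, Hes6, Kdm1b, Mef2b, Nobox, Noto, Sfr1, Sohlh1, Tbpl2, Tcf25, Thap7 and Ybx3), all on the same reporter background. Directly induced oocyte-like cells (DIOLs) came from the stem cell line MGA8, also C57BL/6 X 129, aggregated in the presence of Shield1, a small molecule that stabilises proteins carrying a destabilising domain. They were taken on days 1, 3, 5, 7 and 14 as DIOLs.S and on days 5, 10, 15 and 25 as DIOLs; the meaning of the S is not given. MII DIOLs, oocytes arrested at the second meiotic metaphase, were DIOLs combined with gonadal somatic cells and carried through in vitro growth and in vitro maturation. Germinal vesicle (GV) oocytes from Blimp1-Venus and Stella-CFP animals were either incompetent or competent to resume meiosis, with columns naming 2 and 3 weeks of age. Each group had n = 2 libraries, and each GV group n = 3.

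Mitochondria carry their own ribosomes, which translate the few proteins encoded in mitochondrial DNA, all of them core parts of the respiratory chain and ATP synthase. Every protein of this ribosome is encoded in the nucleus, made in the cytosol and imported. Some members have a counterpart in the bacterial ribosome and others exist only in mitochondria. Oocytes accumulate a very large store of mitochondria during growth, and most transcription stops before the oocyte matures, so that maturation runs on stored RNA.

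Nuclear genes for mitochondrial proteins often lie behind compact promoters bound by NRF1, by the ETS family factor GABP or by YY1. Promoter windows were taken from RefSeq (build GRCm38.p6), 250 bases before to 50 bases after the start, and 53 of the 59 members had one. Motifs were searched on both strands: TGCGCA, the core of the palindromic NRF1 site, CCGGAAG for ETS factors, AAGATGGC for YY1 and TATAAA for the TATA box; the first reads the same on both strands and none of the 4 strings contains another. TGCGCA stood in the windows of 18 members (34%), against 13.3% of 9319 other tested genes. CCGGAAG stood in 16 (30.2% against 15.8%), AAGATGGC in 9 (17% against 4.09%) and TATAAA in 3 (5.66% against 10.5%). In the 250 bases before the start alone, TGCGCA stood in 28.3% against 11.1% and CCGGAAG in 18.9% against 12.6%. There AAGATGGC stood in 2 members (3.77% against 2.02%) and TATAAA in 3 (5.66% against 9.48%). Most members with AAGATGGC thus had it only when the 50 bases after the start were included. A match describes the letters and is not evidence of binding. The sequences of 5 members are shown because the results below turn on them: Mrpl45 and Mrps16 rose in several knockouts, Mrpl12 fell furthest in MII DIOLs, Mrps18a is a paralogue placed in the large subunit, and Mrps36 is the member that is no ribosomal protein. Each runs 5′ to 3′ on the strand of its gene and ends before the first annotated base of the transcript, and capitals mark motif matches.
Mrpl45, chr11:97315466-97315715, plus strand: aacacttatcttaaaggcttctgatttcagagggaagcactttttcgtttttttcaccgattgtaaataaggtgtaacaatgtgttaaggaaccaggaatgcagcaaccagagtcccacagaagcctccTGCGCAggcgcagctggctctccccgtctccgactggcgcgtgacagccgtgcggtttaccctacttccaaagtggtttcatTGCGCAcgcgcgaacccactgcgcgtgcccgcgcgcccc
Mrps16, chr14:20393635-20393884, minus strand: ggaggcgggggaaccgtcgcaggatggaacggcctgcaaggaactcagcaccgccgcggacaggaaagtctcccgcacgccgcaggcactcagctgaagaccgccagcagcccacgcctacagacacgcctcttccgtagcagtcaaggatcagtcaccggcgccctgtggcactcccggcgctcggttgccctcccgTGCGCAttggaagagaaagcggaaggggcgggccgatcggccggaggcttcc
Mrps18a, chr17:46110754-46110985, plus strand: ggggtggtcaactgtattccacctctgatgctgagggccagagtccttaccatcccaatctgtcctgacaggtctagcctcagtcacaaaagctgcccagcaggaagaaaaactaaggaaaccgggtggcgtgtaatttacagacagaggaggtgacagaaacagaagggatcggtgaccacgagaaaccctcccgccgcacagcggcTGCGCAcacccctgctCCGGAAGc
Mrpl12, chr11:120484387-120484612, plus strand: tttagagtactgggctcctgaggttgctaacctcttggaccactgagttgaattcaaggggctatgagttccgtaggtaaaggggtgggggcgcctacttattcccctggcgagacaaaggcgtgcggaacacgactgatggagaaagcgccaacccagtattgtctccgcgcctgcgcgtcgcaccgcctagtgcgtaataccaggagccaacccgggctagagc
Mrps36, chr13:100744660-100744909, minus strand: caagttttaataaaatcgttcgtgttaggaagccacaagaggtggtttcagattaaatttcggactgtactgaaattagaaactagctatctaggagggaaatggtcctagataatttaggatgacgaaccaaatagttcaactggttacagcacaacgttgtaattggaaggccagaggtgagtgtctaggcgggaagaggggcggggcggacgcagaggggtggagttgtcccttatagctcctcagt
Mrpl45 carries TGCGCA at -121 and again at -39 from the RefSeq start, Mrps16 once at -52, and Mrps18a carries TGCGCA at -42 and CCGGAAG at -26. The stretches printed for Mrpl12 and Mrps36 hold none of the 4 motifs, and neither do their whole windows. Outside the stretches printed, the window of Mrps16 also holds CCGGAAG and that of Mrps18a holds AAGATGGC.

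The members also often share a start region with another gene. A protein-coding gene on the opposite strand began within 500 bases of 15 of the 59 members (25.4%), against 7.81% of 11417 other tested genes. Members were shorter genes, with a median length of 7098 bases against 24171. Copies matter for how reads are assigned: in 12 members at least 20% of the transcript's 50-base windows also occur in another annotated gene, in 16 members 5 to 20%, and in 31 members less than 5%. The 12 are Mrps18b (63.7%), Mrps34 (52.4%), Mrpl27 (39.0%), Mrpl24 (38.0%), Mrps36 (36.2%, mostly in the processed pseudogene Mrps36-ps1), Mrpl22 (33.4%), Mrps6 (32.2%), Mrpl33 (30.3%), Mrpl13 (23.9%), Mrps18c (23.2%), Mrpl43 (22.9%) and Mrps10 (22.6%). How reads in such stretches were assigned is not given in the sources used here, so the levels of all 12 are uncertain wherever they are named. Exons of 20 members overlap those of another gene on the opposite strand. Directional libraries can keep these apart only if counting used the strand, which is not given in the sources used here. Among the 20 are Mrps7 (Gga3 and Mif4gd), Mrpl10 (Gm11574), Mrpl12 (Gm16755), Mrpl36 (Ndufs6), Mrpl44 (Wdfy1) and Mrpl47 (Actl6a and Ndufb5). In 5 members, Mrps24 (Urgcp) among them, exons overlap another gene on the same strand, which directional libraries cannot keep apart.

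The libraries were checked before the members were compared. Between 8011 and 10596 genes reached a TPM of 1 in a library, and libraries of one group correlated with r of 0.967 to 0.998 over log2 values, apart from the Sohlh1 knockout with 0.873. Of the 19 targeted genes 12 were in the table; 7 of these fell past the threshold, 3 (Sub1, Sfr1 and Thap7) were lower by a log2 of less than 1, and Ccnk and Ell3 did not pass the test. Results for those groups are therefore for the libraries labelled Ccnk, Ell3, Sub1, Sfr1 or Thap7 knockout. The other 7 targets (Figla, Foxr1, Mef2b, Nobox, Noto, Tcf25 and Ybx3) were not among the genes analysed here. Their loss could not be checked, and these groups too are named by their labels. The titles of the Figla and Sohlh1 knockouts carry a prefix, IVD, that other knockouts lack. Those of DIOLs.S of day 14 abbreviate the day, unlike earlier DIOLs.S titles. Both sets and DIOLs of day 5, worded like the other DIOLs, stand next to each other in the numbering of titles. No batch is given, and the part of any batch in the results was not tested. Because the labels do not say that libraries came from separate cultures or animals, p-values measure the spread between these libraries, which may be technical. Fewer cells of a type and less RNA per cell cannot be told apart in these bulk samples.

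Of the 59 members 58 were above 0 in every library. Mrps36 was the other one, listed at 0 in both libraries of the Lhx8, Sub1 and Dynll1 knockouts and in 1 library each of day 11 wild type and of the Stat3 and Ybx3 knockouts. The members' summed level was 10369 TPM in wild-type oocytes of day 11 and 9106 TPM in those of day 13. Knockouts ranged from 7665 TPM (Foxr1) to 13374 TPM (Sohlh1). DIOLs.S held 5655 TPM on day 1 and 8106 TPM on day 14, and DIOLs 9319 TPM on day 5 and 7533 TPM on day 25. The genes used took unequal parts of the total, 520838 and 520945 TPM in DIOLs.S of day 1 and 668178 and 668423 TPM on day 14. As a percent of the genes used, members held 1.09% in DIOLs.S of day 1 and 1.21% on day 14. In DIOLs they held 1.37% on day 5 and 1.19% on day 25, and in MII DIOLs 0.257%. Incompetent GV oocytes held 5302 TPM and competent ones 5068 TPM. MII DIOLs stood far below all other groups, with 1617 and 1702 TPM in their libraries. There, 31 and 40 of the 59 members reached 10 TPM, against a mean of 56.7 or more in any other group.

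**Figure D1:**
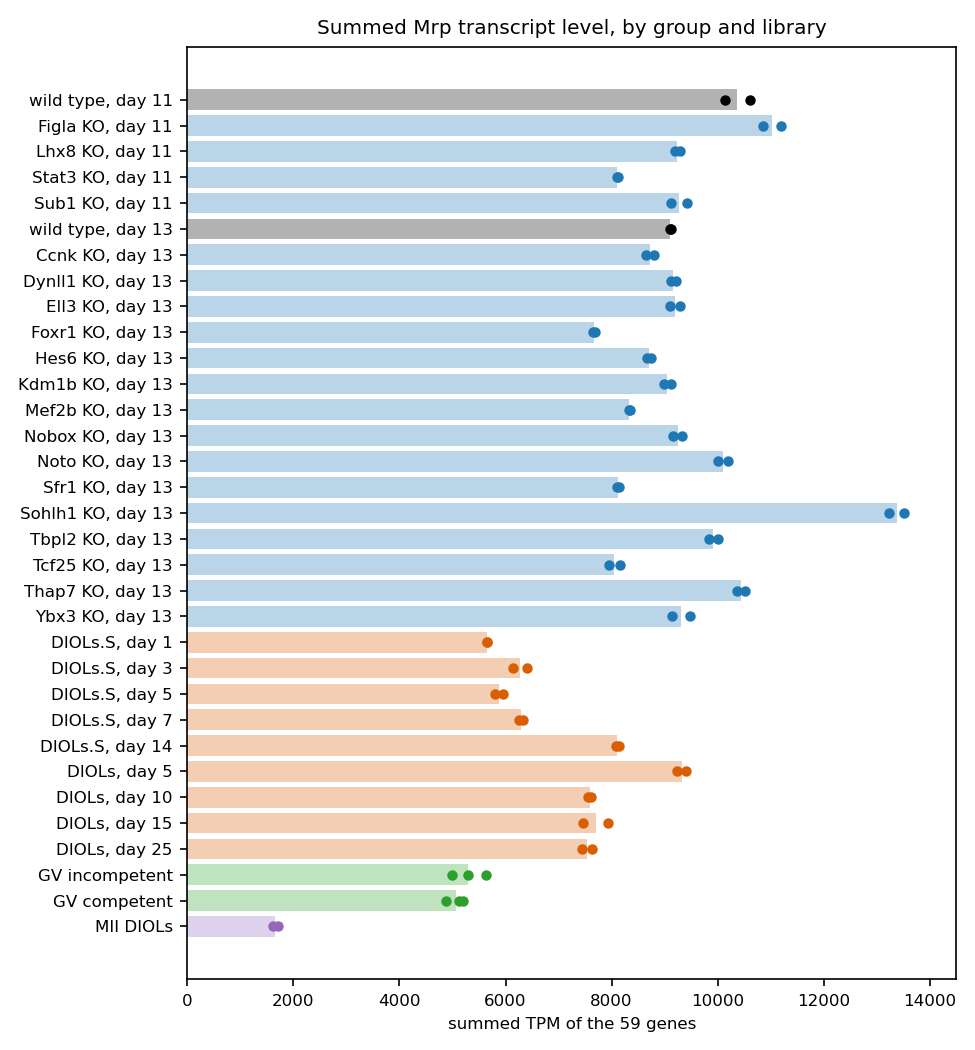
Summed TPM of the 59 genes (horizontal axis) in each group (rows). Bars are group means and dots libraries; black marks wild type, blue knockouts, orange DIOLs, green GV oocytes and purple MII DIOLs, whose libraries at 1617 and 1702 TPM lie below every other.

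TPM is scaled for transcript length, so members can be set beside each other. Averaged over all libraries, the highest were Mrpl24 (371 TPM), Mrpl33 (323 TPM), Mrpl52 (307 TPM), Mrps7 (294 TPM) and Mrpl30 (278 TPM). The lowest were Mrps36 (19.1 TPM), Mrpl1 (23.0 TPM), Mrpl41 (35.0 TPM), Mrpl50 (40.4 TPM) and Mrpl15 (42.4 TPM). Subunits of one particle thus differed widely in RNA level. The order was not the same in each group: Mrpl24 was the highest member in 15 of the 33 groups. Elsewhere it was, for example, Mrpl18 in competent GV oocytes (332 to 354 TPM), Mrpl20 in the Lhx8 knockout (515 to 531 TPM) and Mrpl33 in the Sohlh1 knockout (796 to 952 TPM), examples chosen after their values were seen. Variation between groups was measured as the SD of the group means of log2(TPM + 1). It was largest for Mrps36 (2.05), Mrpl20 (1.12) and Mrps7 (1.10), and smallest for Mrps2 (0.30), Mrpl44 (0.34) and Mrpl9 (0.35).

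Changes were tested in 33 comparisons with limma on log2(TPM + 1), and a gene was called at a Benjamini-Hochberg adjusted p under 0.05 with a log2 change of at least 1. All 59 members were tested in each. Fold changes are on the log2(TPM + 1) scale, which understates those of low genes. Where groups are said not to overlap, the genes had mostly been picked by their call, so the lack of overlap adds no support. It was also common without a call. In libraries labelled Thap7 knockout 43 members lay wholly above wild type and 0 were called higher, and in the Noto knockout 29 and 0. The share of all genes without overlap was not worked out, so these counts are not a result about the members. Of the members 1 was called in no comparison, and 18 more only in those with MII DIOLs. The matching shares of all genes were not worked out, so these numbers do not set the members apart. The plot of percent called shows the members beside all genes. Several counts given below are shares close to that of all genes and say nothing about the members as a set: those lower in the Stat3 knockout (10.2% against 11.5%), and those higher in DIOLs.S of day 14 against day 7 (8.47% against 7.78%) and in DIOLs of day 25 against GV oocytes (15.3% against 12.8%). The rises in the Sohlh1 knockout (27.1% against 22.3%) are not far from that share either. The rule without the fold limit gave wider gaps. Lower in the Stat3 knockout were 54.2% of members against 19.6% of all genes, and higher 15.3% against 25.3%. In DIOLs.S of day 14 against day 7, 40.7% were higher against 17.8%, and 10.2% lower against 51.2%. For DIOLs of day 25 against GV oocytes these shares were 66.1% against 28.4% and 3.39% against 28.9%. In the Sohlh1 knockout they were 57.6% against 33.3% and 11.9% against 19.9%.

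**Figure D2:**
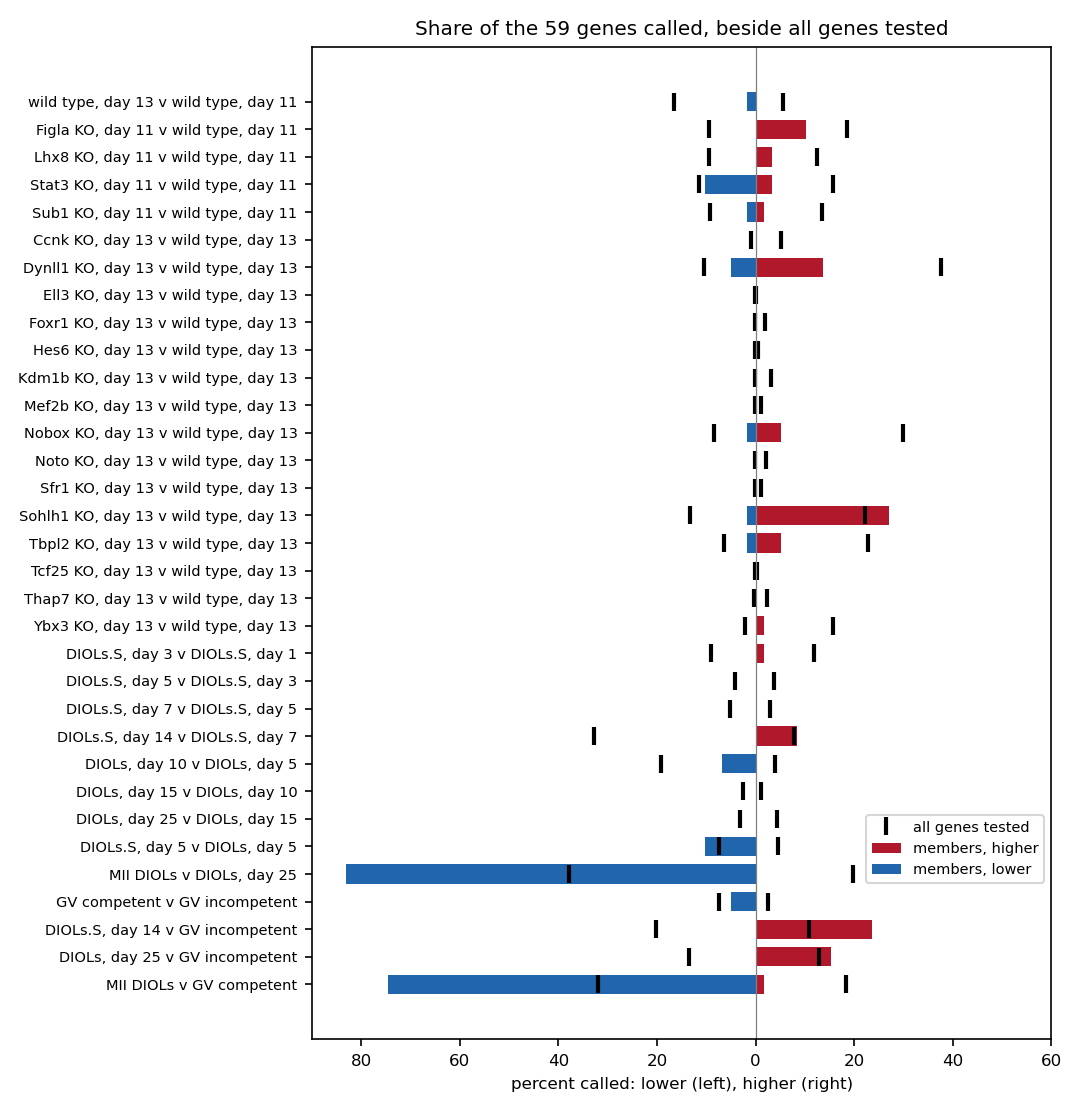
Percent of the 59 genes called higher (red, right) and lower (blue, left) in each comparison, first group against second; black ticks give the percent of all genes tested. The blue bars of the MII comparisons pass their ticks of 37.8% and 31.9%, while in most knockouts the bars end before the ticks.

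The largest difference was in MII DIOLs. Against DIOLs of day 25, 49 of the 59 members fell and 0 rose, while 37.8% of all 11603 genes tested fell and 19.8% rose. The median change was -3.01 for members and -0.39 for all genes. At an unadjusted p under 0.05, limma had 2 members higher and 55 lower. TPM forces a fixed total, so the values were also rescaled by the median of ratios, which moved the median of all genes by 0.39. It left 39 members lower and 2 higher, with a median of -2.06, against 28.5% lower and 31.1% higher of all genes. The groups differ in meiotic stage and in culture with somatic cells at once, and these cannot be told apart.

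Mrpl12, the protein of the flexible stalk that recruits translation factors, showed the largest fall. It read 0.76 and 10.6 TPM in MII DIOLs and 233 and 205 TPM in DIOLs of day 25, a log2 change of -5.60 ± 0.46 (SE; adjusted p = 5.9e-10). The groups do not overlap, but the MII libraries differ widely from each other. Mrpl55, a large subunit protein found only in mitochondria, averaged 3.43 ± 0.106 TPM against 202 ± 5.44 TPM (SD, n = 2) and fell by 5.52 ± 0.12 (SE). Mrps7, which binds the head of the small subunit, read 6.57 and 7.60 TPM against 276 and 278 TPM and fell by 5.11 ± 0.09 (SE). Both members had MII libraries close together and far below the DIOLs. Mrps27 averaged 3.80 TPM against 138 TPM, a log2 change of -4.87. Mrpl30 read 9.97 and 12.3 TPM against 248 and 278 TPM, a change of -4.45.

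Some members near the working centres of the ribosome were among those that fell, as most members did, while Mrpl10 at the stalk base did not. Mrpl11, at the stalk base, averaged 1.41 TPM in MII DIOLs and 32.4 TPM in DIOLs of day 25, a log2 change of -3.80. Mrpl16 and Mrpl27, which lie close to the peptidyl transferase centre, changed by -3.62 and -3.04. Mrpl45, which anchors the ribosome to the inner membrane near the exit of the protein tunnel, averaged 3.00 TPM against 44.6 TPM, a change of -3.51. Mrps30, a large subunit protein in spite of its name, averaged 9.78 TPM against 77.4 TPM, a change of -2.86. The 3 paralogues Mrps18a, Mrps18b and Mrps18c were all called lower and averaged 8.82, 4.99 and 10.4 TPM in MII DIOLs. Their levels thus fell together, although Mrps18a belongs to the large subunit and the others to the small one.

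Members that were not called lower in this comparison numbered 10. Mrpl10, the stalk base protein that carries Mrpl12, read 124 and 130 TPM in MII DIOLs and 84.1 and 78.3 TPM in DIOLs of day 25, a log2 difference of 0.64. Mrpl44, which carries an RNase III-like fold, read 139 and 126 TPM against 95.4 and 109 TPM, a difference of 0.37. In both the MII libraries lie above the DIOLs without reaching the fold limit, the reverse of the stalk protein Mrpl12. Mrps14 stood at -0.18, Mrps23 at -0.62, Mrpl18 at -0.64, Mrpl50 at -0.66, Mrps2 at -0.71, Mrps9 at -0.83 and Mrpl2 at -0.90. Mrps36 read 28.6 and 75.7 TPM against 75.6 and 61.3 TPM, and the groups overlap. The smallest fall that was called was that of Mrpl24, the most abundant member, at -1.05.

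**Figure D3:**
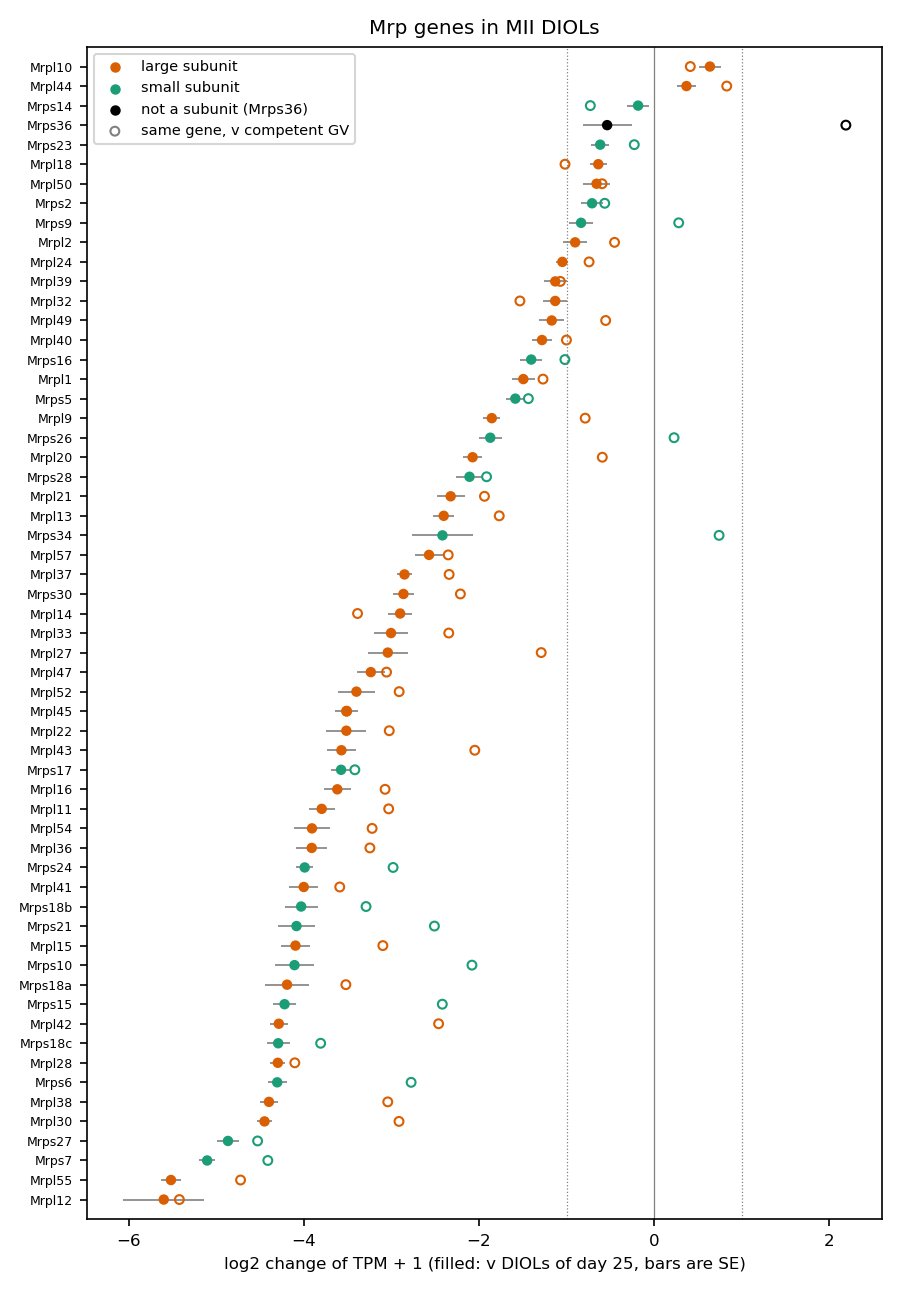
Log2 change of TPM + 1 in MII DIOLs (horizontal axis) for each of the 59 genes (rows, in order). Filled dots with SE bars are against DIOLs of day 25 and open dots against competent GV oocytes; orange marks the large subunit, green the small subunit and black Mrps36, and dotted lines the fold limit, with Mrpl12 at -5.60 and Mrpl10 at 0.64 as the ends.

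The falls were spread over the classes of members. In the large subunit 34 of 39 members fell and in the small subunit 15 of 19. Of members with a bacterial counterpart 30 of 36 fell, and of those found only in mitochondria 19 of 22. By shared sequence, 11 of 12 members with at least 20% shared fell, 13 of 16 with 5 to 20%, and 25 of 31 with less than 5%. Among members with a promoter window, 14 of 18 with TGCGCA fell and 29 of 35 without it, 14 of 16 with CCGGAAG and 29 of 37 without, and 9 of 9 with AAGATGGC and 34 of 44 without. These counts are descriptions of the same libraries and were not tested against each other.

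Against competent GV oocytes, a stage just before maturation in the animal, 44 members were lower in MII DIOLs and 1 was higher. Of all genes 31.9% were lower and 18.3% higher. The median was -2.34 for members and -0.13 for all genes. After rescaling, 35 were lower and 6 higher, with a member median of -1.49 and a shift of 0.26 in the median of all genes. Of all genes 24.1% were then lower and 32.4% higher. Mrpl12 read 206, 177 and 197 TPM in GV oocytes, against 0.76 and 10.6 TPM, a change of -5.42 ± 0.42 (SE). Mrpl55, Mrps27, Mrps7 and Mrpl28 followed, at -4.72, -4.53, -4.41 and -4.10. The member that rose was Mrps36, with 28.6 and 75.7 TPM against 10.3, 6.67 and 12.1 TPM, a change of 2.19 ± 0.26 (SE). In the large subunit 31 of 39 members fell and in the small 13 of 19. MII DIOLs and GV oocytes differ at once in meiotic stage, in origin from stem cells or animals, and in culture. These differences cannot be told apart. The comparison with DIOLs of day 25 and the one with GV oocytes share the MII libraries, so they are not independent.

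Other genes of mitochondrial translation were examined in MII DIOLs against DIOLs of day 25 as well, where 37.8% of all genes fell and 19.8% rose. All 4 ribosomal subunits in the table under other names fell (median -3.44; 3 of 4 after rescaling): Ict1, a release factor built into the large subunit, by 5.42, Aurkaip1 by 4.12, Chchd1 by 2.77 and the GTP-binding protein Dap3 by 1.61. Of 12 mitochondrial aminoacyl-tRNA synthetases, which charge tRNAs with amino acids, 10 fell and 0 rose (median -2.61), led by Vars2 at -4.34 and Rars2 at -3.90. After rescaling 9 were lower and 1 higher. Other groups were mixed. Of 8 translation factors 4 fell, among them the recycling factor Mrrf at -3.04, while the elongation factor Gfm1 rose by 2.06. Their median of -0.68 turned to 0.25 after rescaling. Of 15 assembly and rRNA modification factors 7 fell and 4 rose, with the rRNA methyltransferase Tfb1m at -5.03 and the GTPase Gtpbp10 at 3.42. Of 9 genes of mitochondrial transcription and mRNA handling 5 fell, including the DNA packaging factor Tfam at -4.91 and the RNA polymerase Polrmt at -4.11, and 2 rose, including the transcription factor Tfb2m at 2.86. Of 6 biogenesis regulators Yy1 (-1.52) and Esrra (-1.45) fell and Pprc1 (1.32) rose, and their median of -0.34 turned to 0.46 after rescaling. No cytosolic ribosomal protein gene was among the genes analysed here.

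Marker genes moved in the same libraries. The summed level of 7 oocyte markers was 10134 to 10401 TPM in MII DIOLs and 57419 to 57560 TPM in DIOLs of day 25. Of 13 granulosa and gonadal somatic markers 8 rose, and their sum was 456 to 803 TPM against 28.6 to 32.4 TPM, with Krt19 at 0 in both groups. Stroma and endothelium markers summed to 107 to 114 TPM against 23.6 to 47.4 TPM. Macrophage and blood markers summed to 14.1 to 16.1 TPM in MII DIOLs and 160 to 163 TPM in DIOLs of day 25. Of these 9 markers 6, among them Ptprc and C1qa, were listed at 0 in MII DIOLs. In DIOLs of day 25, 4 were listed at 0, and Lyz2 was at 0 in both groups. Competent GV oocytes had sums of 23571 to 25395 TPM for oocyte and 76.4 to 158 TPM for granulosa and gonadal somatic markers. The part of other cells in the members' fall was not tested.

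Between incompetent and competent GV oocytes of the animal, few members changed. In competent oocytes 3 fell and 0 rose (unadjusted p under 0.05 in 8 higher and 21 lower), against 7.42% and 2.54% of all genes. The member median was -0.11 and that of all genes 0. Mrps34, a small subunit protein found only in mitochondria, read 19.4, 17.7 and 15.5 TPM in incompetent and 2.40, 3.59 and 2.83 TPM in competent oocytes, a change of -2.24 ± 0.28 (SE; adjusted p = 2.0e-06). Mrps26, another such protein, read 92.0, 92.8 and 101 TPM and then 36.1, 30.5 and 37.0 TPM, a change of -1.44 ± 0.10 (SE). Mrpl43, of the large subunit, read 49.9, 56.7 and 63.1 TPM and then 24.9, 24.4 and 22.4 TPM, a change of -1.21 ± 0.13 (SE). For all 3 genes the groups do not overlap. Mrps34 and Mrpl43 are among the members with uncertain levels, sharing 52.4% and 22.9% of their sequence with other genes. Oocyte markers summed to 35045 to 41141 TPM in incompetent and 23571 to 25395 TPM in competent oocytes, and their part was not tested. In MII DIOLs, Mrps34 and Mrps26 differed from competent GV oocytes by 0.74 and 0.23, and Mrpl43 changed by -2.05.

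DIOLs carried more of several members than incompetent GV oocytes. In DIOLs of day 25, 9 members were higher and 0 lower (unadjusted p under 0.05 in 2 lower), against 12.8% and 13.5% of all genes, and the member median was 0.44 while that of all genes was 0. In DIOLs.S of day 14, 14 were higher and 0 lower (unadjusted p under 0.05 in 5 lower), against 10.9% and 20.2%, with a median of 0.52 against -0.09. Rescaling left 9 and raised the second count to 18, where 12.5% and 14.3% of all genes were higher. Mrpl42, found only in mitochondria, read 73.5, 69.3 and 73.4 TPM in GV oocytes, 216 and 242 TPM in DIOLs of day 25 and 268 and 319 TPM in DIOLs.S of day 14, changes of 1.65 and 2.01. Mrps15 changed by 1.37 and 1.93, and Mrps21 by 1.44 and 1.75. Mrpl30 changed by 1.42 and 1.51. In each of these genes every DIOL library exceeded every GV library. Mrps36 differed most: 7.67, 6.60 and 7.38 TPM in GV oocytes became 75.6 and 61.3 TPM in DIOLs of day 25, a change of 3.07 ± 0.26 (SE), and 117 and 109 TPM in DIOLs.S of day 14, a change of 3.80 ± 0.26 (SE). Oocyte markers summed to 35045 to 41141 TPM in these GV oocytes, 57419 to 57560 TPM in DIOLs of day 25 and 79058 to 82447 TPM in DIOLs.S of day 14, and their part was not tested. DIOLs came from a stem cell line and were made in culture, while the GV oocytes came from reporter animals. These differences cannot be told apart.

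Within the DIOLs.S course few members were called at any step. From day 1 to day 3 only Mrpl41 rose, from 15.2 and 16.3 TPM to 40.5 and 34.6 TPM (1.20 ± 0.16, SE), against 11.9% of all genes higher and 9% lower; after rescaling 0 members passed, as the median of all genes moved by -0.15. From day 3 to 5 and day 5 to 7 limma called 0 members (17 and 16 at an unadjusted p under 0.05), against 7.95% and 8.06% of all genes in either direction. From day 7 to day 14, 5 members rose and 0 fell (unadjusted p under 0.05 in 6 lower), against 7.78% and 32.8% of all genes. The 5 rises are a share close to that of all genes. The member median was 0.24 and that of all genes -0.51. Rescaling, which moved the median of all genes by 0.35, gave 18 members higher and 0 lower, with a member median of 0.74. Of all genes 14.4% were then higher and 21.8% lower. Mrpl47, near the exit of the tunnel, read 50.5 and 61.7 TPM on day 7 and 151 and 131 TPM on day 14, a change of 1.32 ± 0.16 (SE). Mrps18b rose by 1.22, Mrps36 by 1.18, Mrpl55 by 1.07 and Mrps21 by 1.05. In all 5 genes the day 14 libraries lie above those of day 7. Without replicate 1 of DIOLs.S day 7 the count was 3. That group's granulosa and gonadal somatic markers ranged from 525 to 2209 TPM between its libraries and were 53.3 to 83.5 TPM on day 14; their part in the members' rise was not tested.

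Single members drifted steadily through the DIOLs.S course without passing the fold limit at each step. Mrps7 read 79.7 and 82.3 TPM on day 1, 116 and 106 TPM on day 3, 125 and 132 TPM on day 5, 155 and 175 TPM on day 7, and 341 and 283 TPM on day 14. Mrps36 read 20.7 and 20.3 TPM on day 1 and, through 27.6 and 25.5, 37.5 and 41.8, and 53.2 and 45.7 TPM, reached 117 and 109 TPM. In both genes no library of a later day fell below one of an earlier day. Mrpl50, found only in mitochondria, went the other way late, from 38.0 and 40.5 TPM on day 1 to 17.3 and 13.5 TPM on day 14. The first day was not tested against the last.

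Among DIOLs, members were called only in the step from day 5 to day 10. There 4 members fell and 0 rose (unadjusted p under 0.05 in 7 higher), against 19.2% of all genes lower and 3.92% higher. Medians were -0.29 for members and -0.34 for all genes. Mrpl36, a small protein of the large subunit with a bacterial counterpart, read 151 and 180 TPM on day 5 and 66.6 and 59.7 TPM on day 10, a change of -1.38 ± 0.18 (SE). Mrpl52 fell by 1.15, Mrps14 by 1.05 and Mrps16 by 1.03. Rescaling moved the median of all genes by 0.25, left 1 member lower and turned the member median to 0.01. Stroma and endothelium markers summed to 372 to 380 TPM on day 5 and 9.15 to 15.1 TPM on day 10, and oocyte markers to 10562 to 10643 TPM and 39796 to 39858 TPM; their part was not tested. From day 10 to 15 and day 15 to 25 limma called 0 members (16 and 13 at an unadjusted p under 0.05), against 3.64% and 7.57% of all genes. DIOLs.S and DIOLs were both taken on day 5. There 6 members were lower in DIOLs.S and 0 higher (0 higher at an unadjusted p under 0.05), against 7.39% and 4.48% of all genes. Without the fold limit 41 members were lower, against 23.7% of all genes, and the medians were -0.62 and -0.07. Mrps21 read 121 and 131 TPM in DIOLs.S and 345 and 301 TPM in DIOLs, a change of -1.35 ± 0.21 (SE), and Mrps24, Mrpl14, Mrpl33 and Mrps36 followed at -1.13, -1.07, -1.06 and -1.04, with Mrpl54 just past the fold limit. Rescaling left 2 of the 6 past the threshold and the median at -0.50. Granulosa and gonadal somatic markers summed to 412 to 418 TPM in DIOLs.S of day 5 and 37.4 to 44.2 TPM in DIOLs, and stroma and endothelium markers to 124 to 144 TPM and 372 to 380 TPM. The part of these was not tested either.

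In wild-type in vitro oocytes, members changed little between days 11 and 13. Only Mrpl50 fell, from 49.7 and 42.2 TPM to 21.2 and 22.4 TPM (-1.04 ± 0.15, SE; adjusted p = 3.0e-06), while 16.5% of all genes fell and 5.5% rose. The member median of -0.22 was close to that of all genes, -0.24. Rescaling moved the median of all genes by 0.24, turned the member median to 0.20 and gave 2 higher and 0 lower in place of 0 and 1. Mrps36 read 2.45 and 0 TPM on day 11 and 2.80 and 3.24 TPM on day 13. With either library of day 11 left out, or replicate 1 of day 13, the count was 3 or 4. The 7 oocyte markers summed to 8470 to 8676 TPM on day 11 and 56530 to 57916 TPM on day 13. Granulosa and gonadal somatic markers summed to 1000 to 1042 TPM and 39.3 to 41.6 TPM, and stroma and endothelium markers to 514 to 547 TPM and 12.7 to 17.7 TPM. The part of these in the members' values was not tested.

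Among the knockouts, members were called in 9 and in none of the other 10. Of the 59 members 30 were called in no knockout, 21 rose in at least one and 10 fell in at least one. Mrps36 and Mrpl36 did both. How many of all genes were called in no knockout or in at least one was not worked out. These counts therefore say nothing about the members as a set. Knockouts of one day share the same 2 wild-type libraries, so their values are not independent of each other. The map of changes shows every member in every comparison.

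**Figure D4:**
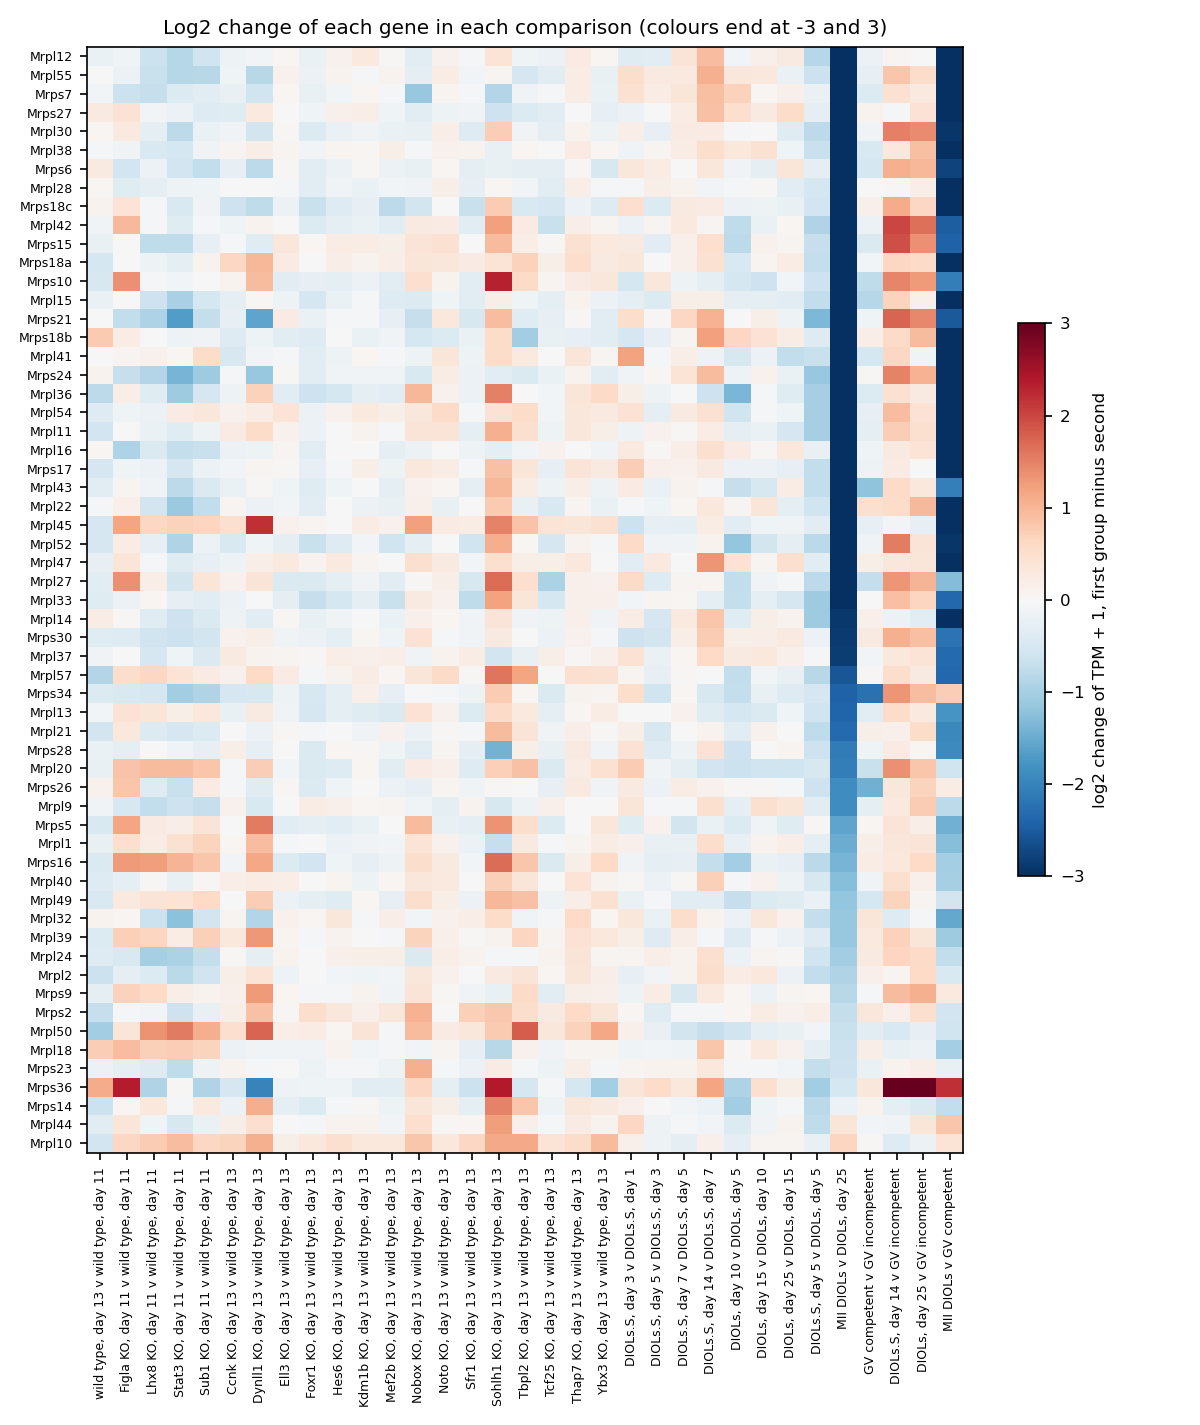
Log2 change of TPM + 1 for each of the 59 genes (rows, ordered by the change in MII DIOLs against day 25) in each of the 33 comparisons (columns, first group against second). Red is higher and blue lower, with colours ending at -3 and 3; the MII column against day 25 is blue for nearly every gene, and Mrpl50 (near the bottom) is red in 6 knockouts where it rose.

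Mrpl50 was called most often, higher in 6 knockouts. On day 11 it read 119 and 117 TPM in the Lhx8 knockout, 133 and 139 TPM in the Stat3 knockout and 85.6 and 113 TPM in libraries labelled Sub1 knockout, against 49.7 and 42.2 TPM in wild type. On day 13 it read 75.5 and 74.7 TPM in the Dynll1, 74.8 and 83.5 TPM in the Tbpl2 and 56.3 and 44.8 TPM in the Ybx3 knockout, against 21.2 and 22.4 TPM. Every one of these libraries lies above its wild type. Log2 changes ran from 1.09 (Sub1) to 1.81 (Tbpl2), each with an SE of 0.15. Mrps16 rose in 5 knockouts (Figla, Lhx8, Stat3, Dynll1 and Sohlh1), Mrpl45 in 4 (Figla, Dynll1, Nobox and Sohlh1), and Mrpl10 and Mrps5 in 3 each. Mrps24, a small subunit protein at the mRNA entry, fell in 3 (Stat3, Sub1 and Dynll1) and Mrps21 in 2 (Stat3 and Dynll1). Because wild-type Mrpl50 itself differed between days, its day 13 values in the knockouts lie above the wild type of both days in the Dynll1 and Tbpl2 libraries.

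Figla encodes a transcription factor of oocyte genes. On day 11 its knockout had 6 members higher and 0 lower (unadjusted p under 0.05 in 10 lower). Of all genes 18.6% were higher and 9.52% lower. Rescaled values gave 4 and 1, with the member median moving from 0.08 to -0.17 and that of all genes by -0.20. Of all genes 13.1% were then higher and 12.1% lower. Mrps16 read 275 and 321 TPM against 137 and 108 TPM, a change of 1.28 ± 0.18 (SE). Mrps10 read 120 and 131 TPM against 50.3 and 46.1 TPM (1.36 ± 0.21, SE), and Mrpl27 140 and 147 TPM against 38.1 and 78.1 TPM (1.38 ± 0.29, SE). Mrps5 and Mrpl45 rose by 1.19 and 1.17. Mrps36 read 12.5 and 5.69 TPM against 2.45 and 0 TPM, and since 1 wild-type library is listed at 0 no fold is given. In all 6 genes knockout and wild type do not overlap, which their choice by a call makes likely.

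The Stat3 knockout had the most members lower on day 11. Of the 59 members 6 fell and 2 rose, against 11.5% lower and 15.8% higher of all genes, and the member median was -0.42 where that of all genes was 0.09. Rescaled values gave 11 lower and 1 higher and a median of -0.58, against 13.3% lower and 12.6% higher of all genes. Mrps21 read 135 and 95.7 TPM against 380 and 354 TPM, a change of -1.68 ± 0.21 (SE). Mrps24 read 137 and 144 TPM against 404 and 340 TPM, a change of -1.39 ± 0.09 (SE; adjusted p = 2.5e-12). Mrpl32, Mrpl22, Mrpl36 and Mrps34 fell by 1.24, 1.10, 1.07 and 1.05, and Mrpl50 and Mrps16 rose by 1.55 and 1.01. In these genes the libraries of the groups do not overlap. Without replicate 1 of the day 11 wild type the total was 13 in place of 8. The Lhx8 knockout had 2 higher (Mrpl50 at 1.35 and Mrps16 at 1.24) and 0 lower (unadjusted p under 0.05 in 21 lower), against 12.4% and 9.47% of all genes, with 2 and 1 after rescaling. Libraries labelled Sub1 knockout had Mrpl50 higher (1.09) and Mrps24 lower (-1.06), against 13.5% and 9.26%, with 0 and 2 after rescaling. Without replicate 1 of the Lhx8 knockout, or replicate 2 of the wild type, the Lhx8 count was 4.

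Markers differed between these day 11 groups too. Oocyte markers, at 8470 to 8676 TPM in wild type, summed to 1371 to 1379 TPM in the Figla, 1514 to 1521 TPM in the Lhx8 and 2210 to 2312 TPM in the Stat3 knockout, and to 2076 to 2104 TPM in libraries labelled Sub1 knockout. Macrophage and blood markers, at 23.9 to 43.7 TPM in wild type with 6 of 9 listed at 0, summed to 300 to 327 TPM in the Figla and 304 to 307 TPM in the Lhx8 knockout. They summed to 1625 to 1633 TPM in the libraries labelled Sub1 knockout and to 22.9 to 27.5 TPM in the Stat3 knockout. In the Lhx8 knockout granulosa and gonadal somatic markers summed to 1580 to 1593 TPM against 1000 to 1042 TPM, and stroma and endothelium markers to 842 to 872 TPM against 514 to 547 TPM. The part of other cells in the changes of members on day 11 was not tested.

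On day 13 the Sohlh1 knockout, lacking a transcription factor of early oocytes, had the most members higher. Of the 59 members 16 rose and 1 fell, against 22.3% and 13.4% of all genes, and the member median was 0.57 where that of all genes was 0.08. The rises are 27.1% of members, not far above the 22.3% of all genes. Rescaled values gave 8 and 4 with a median of 0.21, against 17.4% higher and 18% lower of all genes. The count of rises thus depends on the scaling and is not read as a result about the members. Mrps10 read 179 and 167 TPM against 33.4 and 34.6 TPM, a change of 2.31 ± 0.21 (SE; adjusted p = 1.1e-09). Mrps16 read 284 and 298 TPM against 88.4 and 92.2 TPM (1.68 ± 0.18, SE). Mrpl57 read 111 and 102 TPM against 39.1 and 30.2 TPM and was called higher too. All these libraries lie far above the wild type. Mrpl27 read 93.6 and 201 TPM against 44.7 and 40.6 TPM, so the knockout libraries themselves differ, and it rose by 1.67. Mrps36 read 26.6 and 15.0 TPM against 2.80 and 3.24 TPM and rose by 2.39 ± 0.64 (SE). Mrps28, the member that fell, read 85.8 and 23.1 TPM against 111 and 130 TPM, a change of -1.41. The other rises, Mrpl36, Mrpl45, Mrps14, Mrps5, Mrpl44, Mrpl42, Mrpl33, Mrpl10, Mrpl52, Mrpl11 and Mrpl43, were of 1.50 or less.

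The Sohlh1 libraries also held other cells' markers. Macrophage and blood markers summed to 117 to 2248 TPM there and to 68.9 to 86.0 TPM in wild type of day 13, stroma and endothelium markers to 212 to 2001 TPM against 12.7 to 17.7 TPM, and granulosa and gonadal somatic markers to 170 to 301 TPM against 39.3 to 41.6 TPM. The 7 oocyte markers summed to 1581 to 2327 TPM against 56530 to 57916 TPM. The part of these differences in the members' rise was not tested.

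The Dynll1 knockout, lacking a dynein light chain, had 8 members higher and 3 lower, while 37.7% of all genes were higher and 10.4% lower. The member median was 0.08 and that of all genes 0.69. Rescaling moved the median of all genes by -0.47, gave 2 higher and 12 lower, and turned the member median to -0.56. Of all genes 24.6% were then higher and 17.6% lower, so the share of falls is close to that of all genes. Mrpl45 read 149 and 139 TPM against 26.5 and 35.4 TPM, a change of 2.19 ± 0.18 (SE; adjusted p = 9.2e-11). Mrps5 read 117 and 119 TPM against 35.5 and 43.1 TPM, a change of 1.57. Mrpl50 rose by 1.74, Mrpl39 by 1.29, Mrps9 by 1.28, Mrps16 by 1.16, Mrps14 by 1.09 and Mrpl10 by 1.07. Mrps21 read 108 and 137 TPM against 387 and 345 TPM, a change of -1.58, and Mrps24 read 165 and 198 TPM against 390 and 409 TPM, a change of -1.14. Mrps36 was listed at 0 in both knockout libraries and at 2.80 and 3.24 TPM in wild type. No group overlap was seen in these genes. Oocyte markers summed to 2225 to 2243 TPM and granulosa and gonadal somatic markers to 379 to 408 TPM in this knockout, against the wild-type sums given above, and their part was not tested.

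The Nobox knockout, whose target encodes another oocyte transcription factor, had 3 members higher and 1 lower, against 30% and 8.5% of all genes. The medians were 0.26 and 0.52, and rescaling, which moved that of all genes by -0.44, gave 0 higher and 6 lower and turned the member median to -0.32. Of all genes 18.6% were then higher and 13.9% lower. Mrpl45 read 69.7 and 76.8 TPM against 26.5 and 35.4 TPM, a change of 1.23, and Mrps23 and Mrps2 rose by 1.08 and 1.03. Mrps7 read 207 and 176 TPM against 411 and 427 TPM, a change of -1.13. The libraries of each of these genes are separate between groups. Without replicate 1 of the Nobox knockout the count was 7. Oocyte markers summed to 3113 to 3140 TPM and granulosa and gonadal somatic markers to 709 to 727 TPM, and their part was not tested. The Tbpl2 knockout, lacking the oocyte variant of the TATA-binding protein, had 3 higher (Mrpl50 at 1.81, Mrpl57 at 1.19 and Mrpl10 at 1.13) and 1 lower (Mrps18b at -1.05), against 22.8% and 6.35%. Rescaling gave 1 and 1 and turned the median from 0.18 to -0.25. The Ybx3 knockout had Mrpl50 higher (1.17) and 0 lower (unadjusted p under 0.05 in 4 lower), against 15.7% and 2.21%, and 0 after rescaling. Without replicate 2 of the wild type or of the Ybx3 knockout its count was 2. Oocyte markers summed to 11449 to 11517 TPM in the Tbpl2 and 32019 to 32716 TPM in the Ybx3 knockout, granulosa and gonadal somatic markers to 904 to 1006 TPM and 1325 to 1387 TPM, and stroma and endothelium markers to 514 to 542 TPM and 564 to 609 TPM, against the lower somatic and higher oocyte sums of day 13 wild type. Their part in the changes of members was not tested.

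In the other 10 knockouts of day 13 limma called 0 members, with 3 to 22 at an unadjusted p under 0.05 and 1 to 7 at an adjusted p under 0.05 without the fold limit. Most had few calls of any gene. The percent of all genes called in either direction was 6.14% in libraries labelled Ccnk knockout, 0.114% for Ell3, 1.88% for Foxr1, 0.593% for Hes6, 3.19% for Kdm1b, 1.08% for Mef2b, 2.23% for Noto, 1.24% for Sfr1, 0.504% for Tcf25 and 2.74% for Thap7. Rescaling gave 1 member lower in the Tcf25 knockout and 0 in the others. A count of 0 does not show that members were unchanged, since smaller changes are not called.

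Other genes of the pathway were counted in the knockouts with most calls, in which many genes of any kind rose: 37.7% of all genes in the Dynll1, 30% in the Nobox and 22.3% in the Sohlh1 knockout. Counts near these shares say nothing about the lists themselves. In the Dynll1 knockout 5 of 12 aminoacyl-tRNA synthetases rose and 0 fell, and 8 of 15 assembly factors rose and 1 fell, with medians of 0.93 and 1.06. After rescaling these counts were 1 and 1, and 4 and 2. The assembly GTPase Noa1 rose by 1.97 and the coactivator Pprc1 by 2.77. In the Nobox knockout 3 of 12 synthetases rose, 4 of 15 assembly factors rose and 1 fell, and the regulators Pprc1 (1.73), Esrra (1.49) and Ppargc1a (1.08) rose. Rescaling left 1 of the 3 regulators, 0 synthetases higher with 1 lower, and 1 assembly factor higher with 2 lower. In the Sohlh1 knockout 4 of 8 translation factors rose, including the initiation factor Mtif2 (1.36) and Mrrf (1.08), while Tfam fell by 1.93. After rescaling 2 of the translation factors were higher and 1 lower.

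The 15 neighbours that start back to back with members were compared where they were in the table, which held 14. In MII DIOLs against DIOLs of day 25, 2 of these neighbours rose and 8 fell, while of their 14 members 0 rose and 11 fell, against 37.8% of all genes lower and 19.8% higher. In the Nobox knockout, where 30% of all genes rose, 7 neighbours rose and 0 of their members did. In the Dynll1 knockout, where 37.7% rose, 7 neighbours and 3 of their members did. In the 10 knockouts with no member called, no neighbour was called either. The calls of neighbours and members were not tested against each other.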

How the data were processed

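STAR 2.6.0, featureCounts 1.6.0 and the build mm10 are named in the submitters' processing notes; strand and multi-copy settings are not given in the sources used here. The values deposited by the authors are TPM, 1 per gene symbol and library, and the genes used took 0.521 to 0.708 of a library's total. What made up the rest was not traced, and genes may be missing from the table as held here. TPM keep no depth, so no counting precision can be given.

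Members and gene lists were chosen with earlier results of these data known. Of 71 samples, 68 in 33 groups matched a column; 3 of primordial follicles did not. The table's other 80 columns match none of these samples and were left out. Genes reaching a TPM of 1 in 2 or more of the libraries fitted together entered limma 3.58.1 (R 4.3.3, trend and robust) on log2(TPM + 1), which meant 12306 in 42 in vitro libraries (21 residual degrees of freedom) and 11603 in 26 DIOL and GV libraries (14 degrees). Most groups hold 2 libraries, so the spread was shared over all groups of a fit. P-values were adjusted over all genes of a comparison (Benjamini-Hochberg). The steps were tested on simulated data.

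Named members were up to 5 called per direction and comparison with the largest change, the 5 highest and lowest by level, the 3 most and least variable, and members of set structural roles; of pathway lists, up to 4 called per comparison. Some per-library values and the motif, neighbour and shared-sequence counts were chosen after values were seen. Gene positions and shared sequence come from GENCODE M21 (GRCm38). Alternatives were a pseudocount of 0.1, no filter, rescaling by the median of ratios, the replicate number as a block, 1 fit over all libraries, no fold limit, each library left out, and, added after seeing the data, a fit without the Sohlh1 libraries and a crossed numbering.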

Additional observations from a re-analysis of the deposited data

How the results depend on the processing

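Counts of called members stayed within 1.5 times in all 33 comparisons with a pseudocount of 0.1, no filter and 1 fit over all libraries, and in 19 of 19 in vitro comparisons without the Sohlh1 libraries. Replicate numbers are not said to pair libraries, and deviations of same-numbered libraries did not correlate above 0.1; with the number as a replicate block all 33 counts stayed within 1.5 times, for example 49 in MII DIOLs against day 25. Crossing the numbers in DIOLs.S of day 7 against day 5 gave 0. Rescaling by the median of ratios left the total within 1.5 times in 25 of 33 comparisons, but not always its direction: rises and falls went from 8 and 3 to 2 and 12 in Dynll1, from 3 and 1 to 0 and 6 in Nobox and from 1 and 1 to 0 and 2 in Sub1. It gave 2 for wild type of day 13, 1 for Tcf25, 18 for DIOLs.S of day 14 against 7, 2 for Tbpl2, 0 for Ybx3, 0 for DIOLs.S of day 3 against 1, 1 for DIOLs of day 10 against 5, and 2 for DIOLs.S against DIOLs. Rescaled shares of all genes higher and lower were 9.5% and 11.2% for wild type, and 11.2% and 10% for Lhx8. For Sub1 they were 11.5% and 10.5%, for Tbpl2 15.7% and 11.5%, for Ybx3 12.3% and 5.49%, and for Tcf25 0.262% and 0.295%. For DIOLs.S of day 3 against 1 they were 8.13% and 11.1%, and for DIOLs of day 10 against 5 they were 5.49% and 13.2%. For DIOLs.S against DIOLs they were 4.58% and 5.22%. Without the fold limit counts were 20 for wild type, 26 Figla, 26 Lhx8, 41 Stat3, 25 Sub1, 6 Ccnk, 33 Dynll1, 1 Ell3, 7 Foxr1, 1 Hes6, 1 Kdm1b, 4 Mef2b, 29 Nobox, 3 Noto, 6 Sfr1, 41 Sohlh1, 24 Tbpl2, 2 Tcf25, 6 Thap7 and 10 Ybx3; 19, 8, 8 and 30 along DIOLs.S; 32, 8 and 10 along DIOLs; 41 for DIOLs.S against DIOLs, 21 between GV stages, and 45 and 41 for DIOLs.S of day 14 and DIOLs of day 25 against GV oocytes. Of all genes, the rule without the fold limit called 40.5% in wild type, 46.4% Figla, 38.7% Lhx8, 44.9% Stat3 and 40.9% Sub1. On day 13 it called 65.2% Dynll1, 57.3% Nobox, 53.2% Sohlh1, 47.7% Tbpl2, 33.2% Ybx3, 17.7% Ccnk and 0.496% to 5.98% in the rest. Along DIOLs.S it called 49.1%, 28.2%, 27% and 69%, and along DIOLs 53.3%, 18.7% and 29.1%. It called 37.9% for DIOLs.S against DIOLs, 39.6% between GV stages, and 59.9% and 57.3% against GV oocytes. With each library left out, 126 of 137 counts stayed within 1.5 times. The ranges of those that did not were 1 to 4 for wild type, 6 to 13 for Stat3, 2 to 4 for Lhx8, 3 to 7 for Nobox, 1 to 2 for Ybx3, 3 to 7 for DIOLs.S of day 14 against 7, and 0 to 1 for DIOLs of day 25 against 15 (1 without replicate 2 of day 25). Of 79 called members followed through the alternatives, 712 values kept their call, 55 lost it and none of those run reversed. The cause of these changes was not tested, apart from the fold limit, whose removal can only add calls.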
